A study of Homo sapiens with 6 samples.

Results

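The data describe 8 transcription factors that set the identity of gut and liver cells, HNF4A, FOXA1, FOXA2, FOXA3, GATA4, GATA6, CDX1 and CDX2, in SW480, a line of human colorectal adenocarcinoma cells. They were taken by symbol from gene tables of 56638 rows, and all 8 symbols were found. RNA sequencing gave 3 libraries of cells treated repeatedly with the cytokine TGF-β1 at 10 ng/ml (the TGFB1 libraries) and 3 libraries of untreated cells (the control libraries). All 6 libraries carry the same passage range in the labels, how long the treatment lasted in all is not known from the sources used here, and SW480 is a single tumour line, so the results describe that line only. The tables hold whole-number read counts per gene, with 13012898 to 16005222 counts in genes per library. The labels do not tell whether the 3 libraries of a group were grown as separate cultures. The tests therefore reflect the scatter among these libraries, which could be technical.

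In the TGFB1 libraries HNF4A was 4.69-fold lower than in control libraries, and FOXA1 and GATA6 were 1.42-fold and 1.64-fold higher. The other 5 factors, FOXA2, FOXA3, GATA4, CDX1 and CDX2, were near zero in control libraries, which here means fewer than 10 counts in every one of the 3. FOXA2 and CDX2 had no count in any of the 6 libraries. Only HNF4A, FOXA1 and GATA6 were counted deeply enough for a test, and all 3 passed, 1 lower and 2 higher. Of the 14897 genes tested in all, 47.3% passed the same threshold, 23.4% higher and 23.9% lower, so calls were common in this comparison.

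HNF4A is a nuclear receptor that drives genes of hepatocytes and of absorptive enterocytes. FOXA1, FOXA2 and FOXA3 are forkhead proteins that can bind closed chromatin and open it, and for that reason are called pioneer factors of the gut tube and liver. GATA4 and GATA6 are zinc finger factors of endoderm and heart, and in the mouse intestine GATA4 sets the identity of the jejunum. CDX1 and CDX2 are homeobox factors, and CDX2 is the main determinant of intestinal over gastric identity and a marker used by pathologists for colorectal origin. These factors bind many of the same enhancers in gut cells and can regulate each other's genes.

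The upstream sequences of HNF4A and FOXA1 are shown because these genes changed in opposite directions. They come from the RefSeq promoter table of build GRCh38.p14, which held windows for 5 of the 8 factors (HNF4A, FOXA1, FOXA3, GATA6 and CDX2), whereas the submitters' notes name hg19 and GRCh37 for the counts. HNF4A has an upstream promoter known as P2 and a downstream promoter known as P1, whose transcripts differ at their first exon, and counts per gene add both together. The P2 window lies at chr20:44355449-44355698, the P1 window at chr20:44400989-44401238, both on the plus strand, and the FOXA1 stretch at chr14:37595349-37595499 on the minus strand. Each HNF4A window holds the 250 bases before the start site, and for FOXA1 only the 151 bases outside annotated exons are given. Capitals mark matches, on either strand, to short motifs: TGTTTAC or TGTTTGC for FOXA factors, AGATAA or TGATAA for GATA factors, CAAAGTNCA for HNF4 factors, TTTATNG for CDX factors and CAGAC for SMAD proteins.
HNF4A P2: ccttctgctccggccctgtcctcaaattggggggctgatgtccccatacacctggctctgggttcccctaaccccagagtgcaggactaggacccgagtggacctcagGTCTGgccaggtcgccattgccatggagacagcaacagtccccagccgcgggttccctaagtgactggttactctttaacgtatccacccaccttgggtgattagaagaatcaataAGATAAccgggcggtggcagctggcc
HNF4A P1: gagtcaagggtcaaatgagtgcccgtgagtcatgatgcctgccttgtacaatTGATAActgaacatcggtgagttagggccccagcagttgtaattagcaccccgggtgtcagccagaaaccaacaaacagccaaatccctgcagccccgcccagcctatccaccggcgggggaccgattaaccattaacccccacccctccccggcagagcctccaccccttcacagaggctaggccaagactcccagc
FOXA1: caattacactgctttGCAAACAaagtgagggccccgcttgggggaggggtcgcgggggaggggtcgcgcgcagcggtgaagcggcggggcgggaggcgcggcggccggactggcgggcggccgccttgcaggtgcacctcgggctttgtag

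The HNF4A P2 window held 1 GATA match and 1 SMAD match. The P1 window held 1 GATA match. The FOXA1 window held 1 FOXA match, read on the opposite strand. The 250-base window of GATA6 held a single match, to the SMAD letters, at 8 to 4 bases before the start site (positions -8 to -4). Among 35116 promoter windows of that length, 14.6% held a GATA match, 6.09% a FOXA match and 38.0% a SMAD match, on either strand. These motifs do not overlap each other in the windows shown, and a match is a description of letters, not of a bound site.

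HNF4A had 34, 33 and 30 counts in TGFB1 libraries 1, 2 and 3, and 164, 130 and 148 counts in control libraries 1, 2 and 3. In CPM (counts relative to the scaled library total), these are 2.31, 2.01 and 2.26 in TGFB1 libraries against 12.0, 9.01 and 9.87 in control libraries. All 3 TGFB1 libraries thus lie below all 3 control libraries, as the libraries of 54.2% of tested genes do not overlap in either direction. The mean fell to 2.19 ± 0.158 CPM in TGFB1 libraries, against 10.3 ± 1.55 CPM in control libraries (SD, n = 3 each). The log2 fold change, TGFB1 minus control, was -2.23 ± 0.17 (SE), with a p of 5.08e-12 from edgeR's quasi-likelihood fit after Benjamini-Hochberg adjustment over the 14897 genes. Among the 3561 genes called lower, 151 had a larger fall than HNF4A. In such libraries a fall in the number of cells that express a gene cannot be told apart from a fall in RNA per cell.

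HNF4A-AS1, an antisense transcript that overlaps HNF4A, had 0 counts in all 6 libraries, and the microRNA gene MIR3646 inside HNF4A had between 0 and 2. The sources used here do not state whether reads were counted by strand.

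Of the FOXA genes, FOXA1 was the only member with more than 1 count in any library. It had 122, 107 and 125 counts in TGFB1 libraries and 73, 90 and 79 counts in control libraries. The corresponding levels are 8.28, 6.53 and 9.42 CPM in TGFB1 libraries against 5.35, 6.24 and 5.27 CPM in control libraries. The groups do not overlap, but TGFB1 library 2 and control library 2 lie close to each other. FOXA1 averaged 8.07 ± 1.46 CPM in TGFB1 libraries and 5.62 ± 0.537 CPM in control libraries (SD, n = 3 each). The log2 fold change was 0.51 ± 0.15 (SE; edgeR adjusted p = 0.00599). Without TGFB1 library 3 it was 0.39 (edgeR adjusted p = 0.0467), which is close to the threshold of 0.05. TTC6, which overlaps FOXA1 on the opposite strand, had 4, 17 and 10 counts in TGFB1 libraries and 13, 4 and 7 in control libraries and did not pass (edgeR adjusted p = 0.625).

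FOXA3, a factor of liver and gut, had no count in the TGFB1 libraries and 1 count in control library 3. FOXA2, a factor of endoderm that is often expressed beside FOXA1, had no count in any library, and neither did LINC00261, the noncoding gene that neighbours it. Taking 3 counts over a group as the limit that a count of 0 leaves, such a gene could stand at up to 0.0676 CPM in TGFB1 libraries and 0.0697 CPM in control libraries, counting error only.

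**Figure D1:**
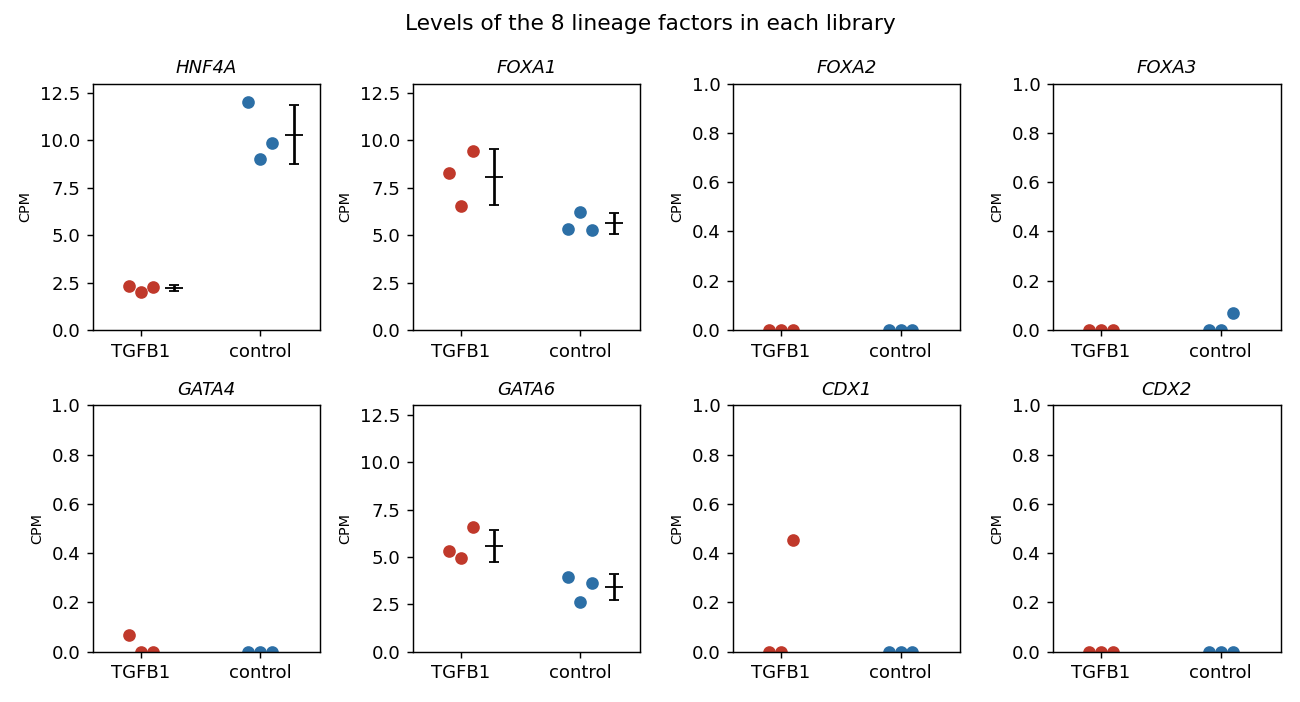
Level in CPM (vertical axis) of each of the 8 factors in the 3 TGFB1 libraries (red) and the 3 control libraries (blue), with 1 point per library, and mean ± SD in black for the 3 tested factors. The panels of HNF4A, FOXA1 and GATA6 run to 13 CPM and the other 5 to 1 CPM. HNF4A lies between 2.01 and 2.31 CPM in TGFB1 libraries and between 9.01 and 12.0 CPM in control libraries.

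GATA6 had 78, 81 and 87 counts in TGFB1 libraries and 54, 38 and 54 counts in control libraries. The levels were 5.29, 4.94 and 6.55 CPM in TGFB1 libraries against 3.96, 2.63 and 3.60 CPM in control libraries. Every TGFB1 library stands above every control library, and control library 2 is the lowest of all. GATA6 averaged 5.60 ± 0.849 CPM in TGFB1 libraries and 3.40 ± 0.686 CPM in control libraries (SD, n = 3 each). The log2 fold change was 0.71 ± 0.18 (SE; edgeR adjusted p = 0.00171). GATA6-AS1, a transcript that overlaps GATA6 on the opposite strand, had 3, 7 and 3 counts in TGFB1 libraries and 5, 1 and 2 in control libraries. It was too low to be tested. GATA4 had 1 count in TGFB1 library 1 and none in the other 5 libraries.

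CDX1 had 6 counts in TGFB1 library 3 and none in the other 5 libraries. Its 6 counts rest on 1 library, so no fold change is given. CDX2 had 0 counts throughout. The label of colorectal cells was set against markers of that epithelium. CDH17, an intestinal cadherin, had 0 counts in each TGFB1 library and 1 to 4 in control libraries. VIL1, the brush border protein villin, had 0 counts in each TGFB1 library and 0 to 2 in control libraries. KRT20, a keratin of the differentiated colon, had 0 to 3 counts in libraries of either group. The simple-epithelium keratin KRT8 was abundant, at 1675 ± 20.5 CPM in TGFB1 libraries and 1708 ± 1.27 CPM in control libraries (SD, n = 3 each). KRT8 does not stand for the whole list of 10 colorectal epithelial markers. Of these, 4 averaged at least 1 CPM in control libraries and 6 were near zero there. KRT19, another keratin, was among the 6, with 0 to 4 counts in TGFB1 libraries and 0 to 1 in control libraries. Nor were all intestinal genes low, as MUC13 averaged 443 CPM in TGFB1 libraries and 803 CPM in control libraries.

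**Figure D2:**
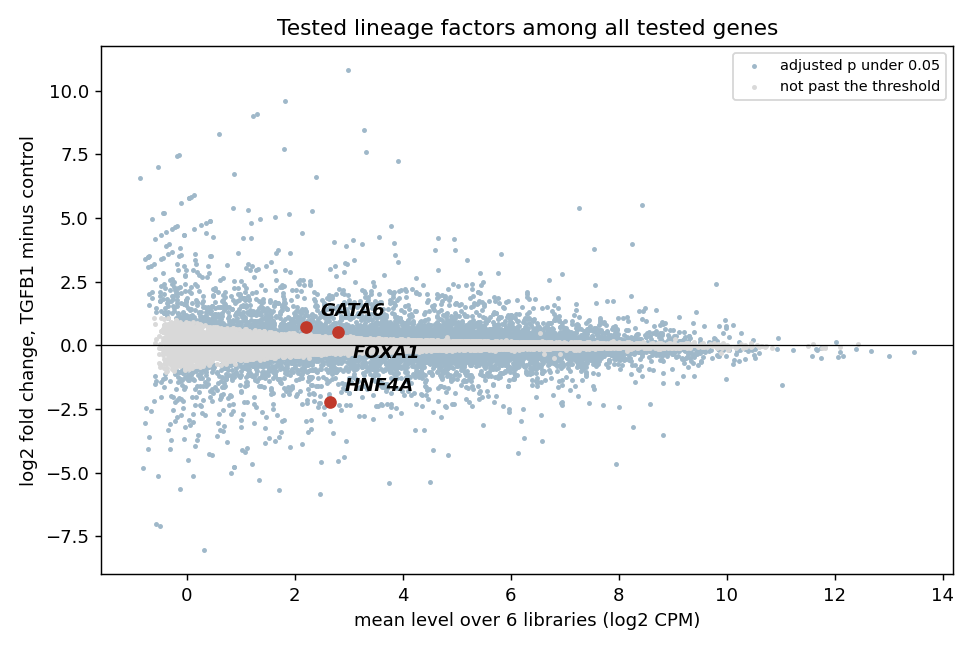
Log2 fold change, TGFB1 minus control (vertical axis), against mean level over the 6 libraries in log2 CPM (horizontal axis) for all 14897 tested genes, with HNF4A, FOXA1 and GATA6 in red. Genes past an adjusted p of 0.05 in edgeR's test are blue and the others grey. HNF4A, at -2.23, lies far below 0, and FOXA1 and GATA6, at 0.51 and 0.71, lie near the upper edge of the grey band.

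Levels of different genes were compared per kilobase of the longest annotated transcript. In TGFB1 libraries the order was FOXA1 at 2.82 ± 0.509, GATA6 at 1.48 ± 0.225 and HNF4A at 0.340 ± 0.0245 CPM per kb (SD, n = 3), with no overlap between neighbours. In control libraries it was FOXA1 at 1.96 ± 0.187, HNF4A at 1.60 ± 0.241 and GATA6 at 0.901 ± 0.182 CPM per kb. There FOXA1 and HNF4A overlapped, from 1.84 to 2.18 for FOXA1 and from 1.40 to 1.87 for HNF4A, so their order is not fixed. HNF4A was thus the lowest of the 3 in TGFB1 libraries and stood above GATA6 in control libraries. The ratio of HNF4A to GATA6 per kb was 0.255, 0.238 and 0.202 in TGFB1 libraries and 1.78, 2.00 and 1.60 in control libraries. The mean log2 ratio differed by -2.95 (TGFB1 minus control, exact permutation p = 0.1, two-sided, the smallest that 3 against 3 libraries allow). That p adds no support, since HNF4A was lower and GATA6 higher in every TGFB1 library, which fixed its value beforehand.

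Close relatives were expressed beside the 8 factors, and at higher levels in some cases. HNF4G, the paralogue of HNF4A that is prominent in intestine, had 50, 73 and 43 counts in TGFB1 libraries and 64, 58 and 71 in control libraries. It averaged 0.878 ± 0.157 CPM per kb in TGFB1 libraries and 1.06 ± 0.0953 CPM per kb in control libraries (SD, n = 3 each), its libraries overlap, and it did not pass (log2 fold change -0.27 ± 0.18 SE, edgeR adjusted p = 0.234). The ratio of HNF4A to HNF4G per kb was 0.444, 0.295 and 0.456 in TGFB1 libraries and 1.67, 1.46 and 1.36 in control libraries. HNF4A was therefore below HNF4G in each TGFB1 library and above it in each control library. The mean log2 ratio differed by -1.93 (TGFB1 minus control, exact permutation p = 0.1, two-sided, again the smallest possible). That p adds no support either, since the fall of HNF4A fixed its value beforehand. HNF4A was at most 2.31 CPM in TGFB1 libraries and at least 9.01 CPM in control libraries, whereas HNF4G ran only from 3.24 to 4.73 CPM.

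GATA2, known best from blood and endothelium, was the most abundant GATA gene here. It stood at 13.1 ± 0.820 CPM per kb in TGFB1 libraries and 16.3 ± 1.27 CPM per kb in control libraries (SD, n = 3 each), and its log2 fold change was -0.31 ± 0.07 (SE; edgeR adjusted p = 0.000449). GATA6 per kb amounted to 0.104, 0.0962 and 0.143 of GATA2 in TGFB1 libraries and to 0.0674, 0.0394 and 0.0618 in control libraries. GATA2 fell where GATA6 rose, and GATA2 was the higher of the pair in every library. GATA3 and GATA5 had at most 12 counts in any library.

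**Figure D3:**
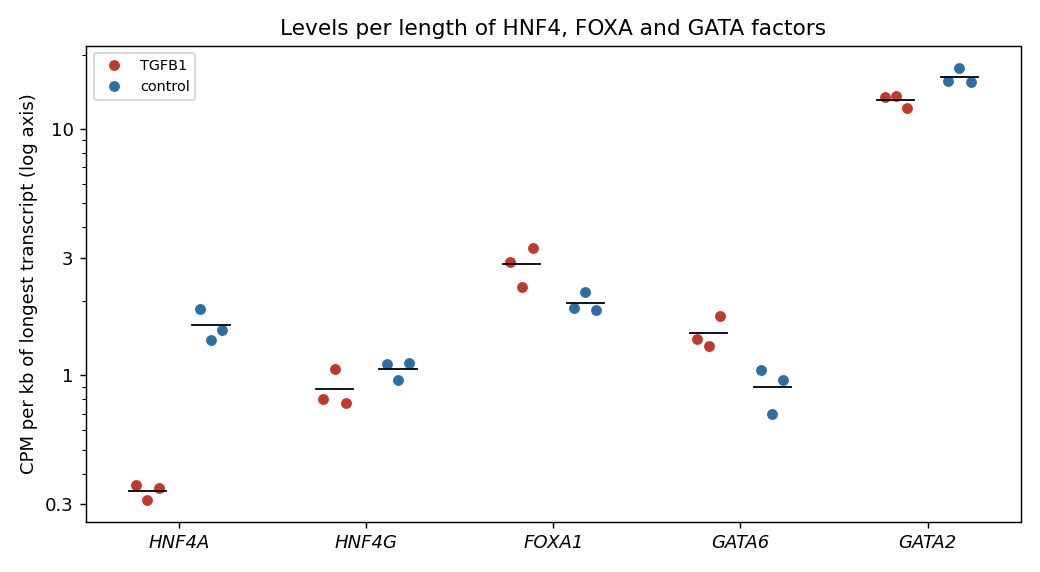
CPM per kb of the longest transcript (vertical log axis) for HNF4, FOXA and GATA genes in each TGFB1 library (red, left of each pair) and each control library (blue), with black lines at the means. HNF4A lies below HNF4G in TGFB1 libraries and above it in control libraries, and GATA2 stands well above the other genes shown.

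A further list of 23 gut and liver lineage factors, cofactors of GATA proteins included, had 14 tested members, of which 3 rose, 4 fell and 7 did not pass. Their median log2 fold change was -0.01, against 0.00033 over all tested genes, of which 47.3% passed. ELF3, an epithelial ETS factor, fell to 23.5 ± 0.838 CPM in TGFB1 libraries, against 37.7 ± 2.73 CPM in control libraries (log2 fold change -0.68 ± 0.08 SE, edgeR adjusted p = 1.61e-08). NR5A2, a nuclear receptor of liver, pancreas and intestinal crypts, had 19, 21 and 13 counts in TGFB1 libraries and 40, 38 and 44 in control libraries (-1.24 ± 0.25, edgeR adjusted p = 0.000121). GATA2, described above, fell as well.

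CEBPB, a leucine zipper factor that acts in liver and in inflammation, rose, with 87.1 ± 3.85 CPM in TGFB1 libraries and 67.4 ± 4.82 CPM in control libraries (log2 fold change 0.37 ± 0.06 SE, edgeR adjusted p = 1.14e-05). ONECUT3, a relative of the liver factor ONECUT1, had 18, 25 and 16 counts in TGFB1 libraries and 6, 6 and 9 in control libraries (edgeR adjusted p = 0.00162). It passed the filter on low counts through the TGFB1 libraries alone, which favours a rise. ONECUT2, HHEX, TBX3, HNF4G, ZFPM1 and ZFPM2 were among those that did not pass. ZFPM2, a cofactor of GATA factors, had 10, 14 and 4 counts in TGFB1 libraries and 21, 15 and 14 in control libraries and missed the threshold narrowly (edgeR adjusted p = 0.0581). ZFPM2 passed the filter on low counts through the control libraries alone, which favours a fall. The remaining 9 factors were untested. GATA5 reached 12 counts in control library 2, the other 8 were near zero in control libraries, and 4 of these, ONECUT1, PROX1, CEBPA and PDX1, had no count in any library.

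**Figure D4:**
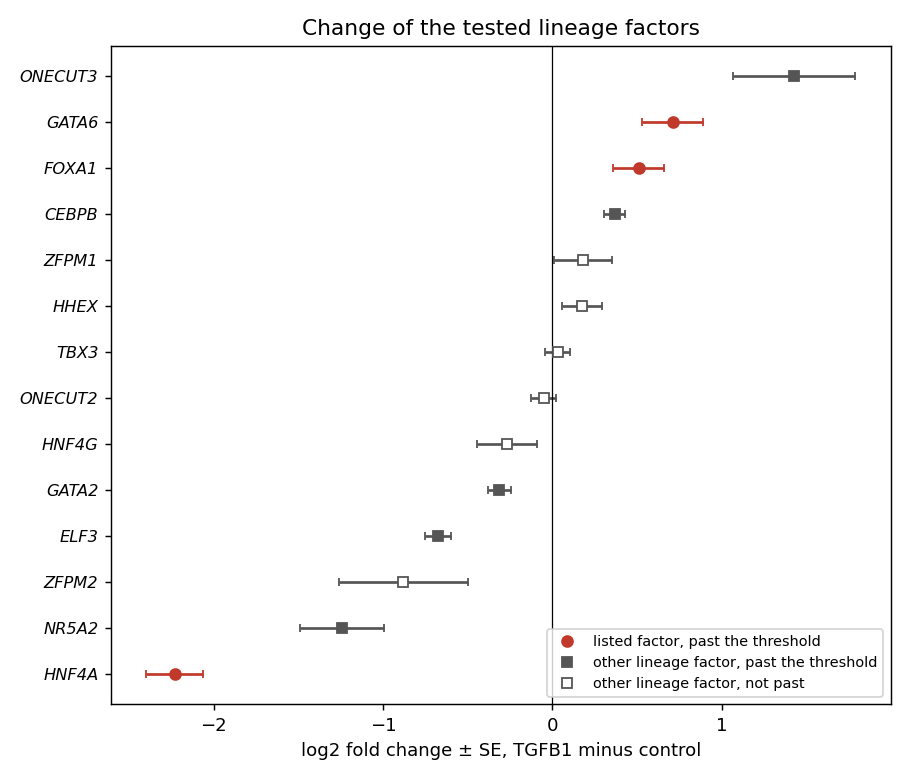
Log2 fold change ± SE, TGFB1 minus control (horizontal axis), of the 3 tested members (red circles) and 11 of the 14 tested other lineage factors (grey squares, open where the adjusted p was not under 0.05). HNF4A, at -2.23, is the lowest point in the plot, and GATA6 and FOXA1, at 0.71 and 0.51, stand on the opposite side of 0.

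Genes listed for differentiated cells of intestine, liver, stomach, pancreas and lung were mostly near zero in control libraries. Whether the 8 factors regulate the listed genes in these cells was not tested. Of 28 intestinal epithelial genes 6 were tested, and 1 rose, 2 fell and 3 did not pass, with a median log2 fold change of -0.38. Over all tested genes 47.3% passed. Of the 28, 20 were near zero in control libraries and 7 had no count in any library, such as FABP1, the liver-type fatty acid binding protein, and TFF3, a goblet cell peptide. MUC13, a membrane mucin of the gut, fell to 443 ± 18.4 CPM in TGFB1 libraries, against 803 ± 12.7 CPM in control libraries (log2 fold change -0.86 ± 0.05 SE, edgeR adjusted p = 2.78e-15). MYO1A, the brush border myosin, had 3, 10 and 1 counts in TGFB1 libraries and 12, 13 and 12 in control libraries (edgeR adjusted p = 0.0167). It passed the filter on low counts through the control libraries alone, and its call ended without TGFB1 library 1 (edgeR adjusted p = 0.0838), without TGFB1 library 3 (edgeR adjusted p = 0.0905) and in DESeq2 (DESeq2 adjusted p = 0.0602). Its log2 fold change was -1.43 with all libraries and -2.52 without TGFB1 library 2 (edgeR adjusted p = 0.00143).

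ANPEP, aminopeptidase N of the brush border, also found on myeloid cells and fibroblasts, moved the other way. It had 892, 974 and 713 counts in TGFB1 libraries and 42, 39 and 58 in control libraries, a 17.9-fold rise (log2 fold change 4.16 ± 0.11 SE, edgeR adjusted p = 1.13e-22). The 2 groups are far apart, from 713 counts upward in TGFB1 libraries and up to 58 in control libraries.

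Of 25 liver secretory and metabolic genes 3 were tested, of which 1 rose and 2 fell, and 22 were near zero in control libraries. The share that passed over all tested genes was 47.3%. Albumin (ALB), transferrin (TF) and the apolipoproteins APOB and APOC3 had no count in any library. AMBP, the precursor of α1-microglobulin and bikunin, had 2, 9 and 2 counts in TGFB1 libraries and 44, 28 and 44 in control libraries. It was 8.99-fold lower (log2 fold change -3.17 ± 0.39 SE, edgeR adjusted p = 9.26e-08), and it passed the filter through the control libraries alone. Without TGFB1 library 2, which held 9 of its 13 counts in that group, the log2 fold change was -4.16 (edgeR adjusted p = 7.48e-09), so the size of the fall depends on that library. AGT, angiotensinogen, had 30, 31 and 22 counts in TGFB1 libraries and 37, 57 and 45 in control libraries (-0.79 ± 0.22, edgeR adjusted p = 0.00480). RBP4, the plasma retinol carrier, had 33, 24 and 21 counts in TGFB1 libraries and 12, 3 and 12 in control libraries (1.47 ± 0.36, edgeR adjusted p = 0.00134), and it passed the filter through the TGFB1 libraries alone.

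Of 16 genes of stomach, pancreas and lung, where the same FOXA and GATA factors also act, 3 were tested, and 1 rose, 1 fell and 1 did not pass. Again, 47.3% of all tested genes passed. NKX2-1, a homeobox factor of lung and thyroid, had 34, 29 and 21 counts in TGFB1 libraries and 51, 53 and 65 in control libraries. Its groups do not overlap, and it was 2.07-fold lower (log2 fold change -1.05 ± 0.21 SE, edgeR adjusted p = 0.000150). The gastric peptide gene GKN1 had 16, 17 and 16 counts in TGFB1 libraries and 5, 4 and 7 in control libraries (1.55 ± 0.40, edgeR adjusted p = 0.00187), through the filter by the TGFB1 libraries alone. CLDN18, a tight junction protein of stomach and lung, did not pass (edgeR adjusted p = 0.203).

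**Figure D5:**
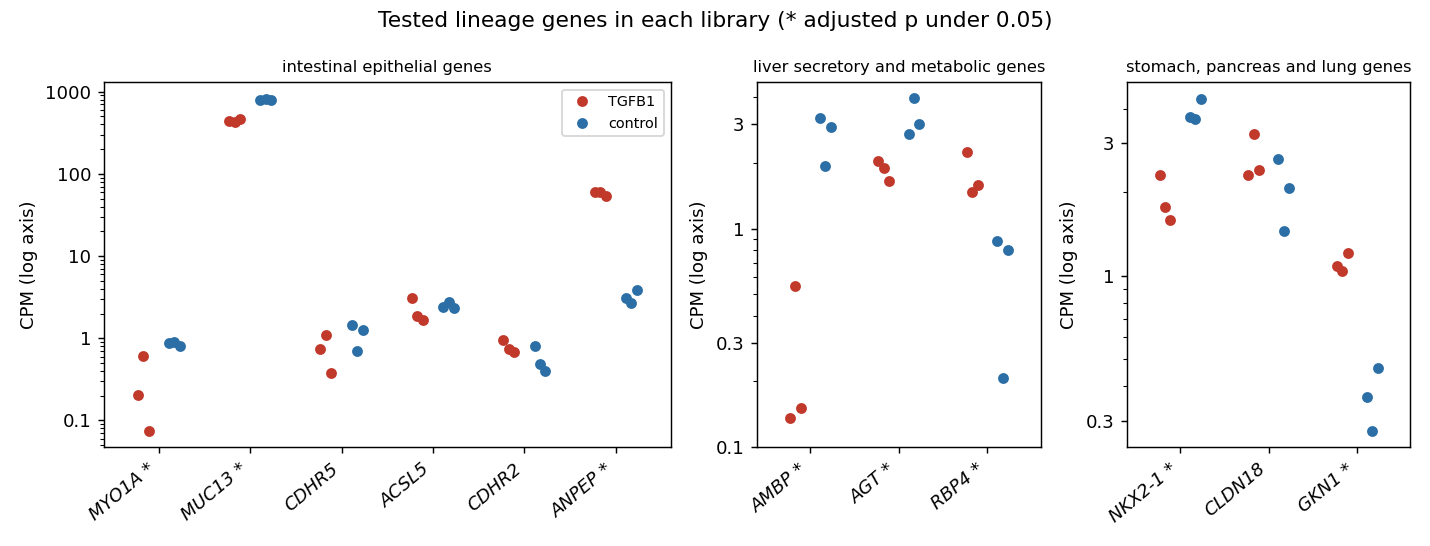
Level in CPM (vertical log axes, which differ between panels) of the tested intestinal, liver, and stomach, pancreas and lung genes in each TGFB1 library (red, left of each pair) and each control library (blue), with 1 point per library. Asterisks mark an edgeR adjusted p under 0.05. ANPEP is 17.9-fold higher in TGFB1 libraries, and AMBP is 8.99-fold lower, with TGFB1 library 2 the highest of its 3 TGFB1 points.

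The genes whose pattern over the 6 libraries lay nearest to each tested factor were taken from 14091 tested genes, by the root-mean-square distance of log2 CPM after each gene was centred on its own mean. Nearest to HNF4A were TMEM178B, NPNT, which encodes the matrix protein nephronectin, and ANKRD32, at distances of 0.100, 0.108 and 0.109, with log2 fold changes of -2.10, -2.22 and -2.05. Nearest to FOXA1 were SARNP, ZNF416 and CLYBL, at 0.0540, 0.0666 and 0.0803, of which only CLYBL passed the test itself (edgeR adjusted p = 0.00334). Nearest to GATA6 were LINC00322, RAD9B and USP46, a deubiquitinase, at 0.0774, 0.0888 and 0.0980, of which RAD9B did not pass (edgeR adjusted p = 0.0503).

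Markers of cell types moved beside these factors. Of 10 colorectal epithelial markers 5 were tested, of which 1 rose, 3 fell and 1 did not pass. Over all tested genes 23.4% rose and 23.9% fell. The summed level of the epithelial list ran from 1779 to 1821 CPM in TGFB1 libraries and from 1894 to 1908 CPM in control libraries. Most of each sum was KRT8, at 1675 CPM in TGFB1 libraries and 1708 CPM in control libraries. KRT8 did not pass (edgeR adjusted p = 0.628), so the sums say little about the other markers. EPCAM, an epithelial adhesion protein, fell to 4.05 ± 1.00 CPM in TGFB1 libraries, against 6.92 ± 0.542 CPM in control libraries (edgeR adjusted p = 0.000246). LGR5, a receptor of intestinal stem cells, had 15, 19 and 12 counts in TGFB1 libraries and 3, 4 and 6 in control libraries (edgeR adjusted p = 0.00113), through the filter by the TGFB1 libraries alone. Of 10 fibroblast markers 5 were tested and all 5 rose, beside 23.4% of all tested genes. The fibroblast list summed to 119.9 to 136 CPM in TGFB1 libraries and 90.8 to 94.9 CPM in control libraries. Most of each sum was COL1A1. The collagen gene COL1A1 averaged 105 ± 5.38 CPM in TGFB1 libraries and 81.2 ± 2.63 CPM in control libraries, DCN (decorin) 7.53 ± 0.917 and 3.37 ± 0.0920 CPM, and PDGFRB, a growth factor receptor, 14.7 ± 2.01 and 7.98 ± 0.373 CPM (SD, n = 3 each). FAP, a fibroblast surface protease, had 17, 22 and 12 counts in TGFB1 libraries and 0, 0 and 1 in control libraries, and THY1, a surface glycoprotein, had 20, 21 and 11 in TGFB1 libraries and 7, 12 and 4 in control libraries, so its groups overlap. FAP and THY1 passed the filter through the TGFB1 libraries alone, so 2 of the 5 rises rest on that filter. COL1A2, COL3A1 and PDGFRA had at most 2 counts in any library, LUM at most 5, and PDPN none. Of 6 immune markers 1 was tested and did not pass, the sums were 1.63 to 3.05 CPM in TGFB1 libraries and 2.01 to 2.13 CPM in control libraries, and the pan-leukocyte marker PTPRC had 0 counts throughout. The part of other cells in the changes of HNF4A, FOXA1 and GATA6 was not tested.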

How the data were processed

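The authors deposited raw read counts per gene symbol, 1 table per library. The submitters' processing notes name the builds hg19 and GRCh37 and the tools HTSeq, TopHat and TopHat2 2.0.11, without their roles. The sources used here do not state the annotation, the strand setting or any read filter. The closing lines of each table are not genes and stayed out: they held 5.44% to 5.98% (no feature), 9.01% to 9.43% (ambiguous) and 12.0% to 12.5% (several alignments) of each table's sum. The labels gave each library's group and number. Chi-square values of 1.76 to 4.34 per degree of freedom between libraries of a group exceeded sampling noise. Each library was counted as a replicate, though such an excess does not tell separate cultures from separate preparations of the same culture.

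The filterByExpr function (minimum count 10, minimum total 15) left 14897 genes. Counts were scaled by TMM (factors 0.975 to 1.02) and tested with edgeR 4.0.16 in R 4.3.3 (robust glmQLFit, glmQLFTest, two-sided, Benjamini-Hochberg, threshold 0.05) without a block. CPM is per TMM-scaled library total. Standard errors are the log2 fold change over the root of F. The fit was tested on simulated data. Limits from a count of 0 cover counting error only, as no molecular identifiers are recorded.

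Alternatives were DESeq2 1.42.0, limma-voom (limma 3.58.1), RLE factors, library size alone, no filter, a filter of 1 CPM in 3 libraries, a block for the replicate number and fits without 1 library each. Lengths are of the longest GENCODE 29 transcript, and the union of exons was tried after the data were seen. The members and lists were chosen with earlier results of these data known. Named were the 8 members, the called members of each list (up to 6 by lowest p), listed genes with no counts, neighbouring transcripts and the 3 genes of mean log2 CPM of at least 0 nearest to each called member. Other genes, such as untested markers and relatives of the members, were named after their values were seen. Some listed genes stay in the counts and medians but are not reported here by name.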

Additional observations from a re-analysis of the deposited data

How the results depend on the processing

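HNF4A, FOXA1 and GATA6 kept their direction and passed the threshold in all 13 alternatives that were run. The log2 fold change ranged from -2.32 to -2.11 for HNF4A, from 0.39 to 0.65 for FOXA1 and from 0.55 to 0.82 for GATA6. These extremes were all reached when single libraries were left out. The highest adjusted p was 2.77e-09 for HNF4A, 0.0467 for FOXA1 and 0.0185 for GATA6. With the replicate number as a block the values were -2.22, 0.51 and 0.72, the same 3 passed, and 6775 genes were called in place of 7044. Same-numbered libraries deviated from their group means with correlations of 0.031, -0.107 and -0.048 across genes, and 1 of 3 TGFB1 libraries correlated best with its own number. With 3 libraries per group, these values cannot settle whether libraries of the same number shared a culture or day. DESeq2 called 6041 genes. With library size alone 4216 genes were higher and 2879 lower, in place of 3483 and 3561. Fallen intestinal genes numbered 1 in DESeq2 and 1 with the filter of 1 CPM, in place of 2, and risen liver genes numbered 2 without a filter, in place of 1. Fallen stomach, pancreas and lung genes numbered 1 to 2 when single libraries were left out, the 2 without TGFB1 library 2. With the union of exons as length, FOXA1 stood at 2.03 CPM per kb in TGFB1 and 1.411 in control libraries. HNF4A stood at 0.300 in TGFB1 and 1.409 in control libraries. All these values are lower by construction, since the union is longer. In control libraries FOXA1 and HNF4A then stood level, so their order there depends on the length used. The fibroblast marker THY1 lost its call in DESeq2 (DESeq2 adjusted p = 0.0800) and without TGFB1 library 1 or 2 or control library 1 or 3. The counting limit for a count of 0 holds for FOXA2 and CDX2 in both groups. It also holds for FOXA3 in TGFB1 libraries and for GATA4 and CDX1 in control libraries. FOXA3 in control libraries and GATA4 in TGFB1 libraries had 1 count each, for which no limit was set.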
